A study of Mus musculus with 2 samples.

Results

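The conventional dendritic cells described here were 735 of the 25418 liver cells that passed the filters, 495 of 13846 in the Ter119 sample and 240 of 11572 in the saline sample. They were picked cell by cell from their own counts of unique molecular identifiers (UMIs, 1 per captured RNA molecule). A cell was taken when H2-Aa, H2-Ab1, H2-Eb1 and Cd74 together held at least 1.2% of its UMIs, it had at least 1 UMI of Cd209a, Flt3, Xcr1 or Clec9a, Clec4f held under 0.3%, and Cd79a, Ms4a1 and Siglech had none. Hemoglobin UMIs (Hba-a1, Hba-a2, Hbb-bs, Hbb-bt) were left out of every such percentage and of the denominator of every level given here as CPM, a gene's UMIs scaled to a common total within a group of cells. The levels of these selection genes therefore describe how the cells were chosen and are not results.

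The Ter119 sample came from 1 C57BL/6J mouse given an antibody against mouse red cells, Ter119, first as a dose of 35 ug under the skin and then as 10 daily doses of 10 ug. The saline sample came from 1 C57BL/6J mouse given saline of a similar volume, and both mice were 7 to 10 weeks old. Livers were taken 24 after the last injection, with no time unit in the labels. Cells other than hepatocytes were enriched on magnetic beads carrying antibodies to F4/80 and CD11b, so dendritic cells were a by-product of a macrophage preparation, and the share recovered depends on those surface proteins. With 1 mouse per treatment, differences between the mice have no replicate check and no test was run, since cells of 1 mouse are not replicates. The intervals given cover counting error only.

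Conventional dendritic cells take up antigen in tissues, load peptides onto major histocompatibility complex (MHC) class II molecules and carry them to T cells. The cDC1 type, marked by Xcr1 and Clec9a and built by the transcription factors Irf8 and Batf3, takes up dead cell material and presents it to CD8 T cells. The cDC2 type, which in mouse liver and other tissues includes cells with the lectin Cd209a, presents chiefly to CD4 T cells, and either type can mature into a migrating state with the chemokine receptor Ccr7. Class II genes share promoter boxes bound by the RFX complex, CREB and the trimeric factor NF-Y, which assemble the coactivator CIITA.

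The class II promoters below are shown because class II transcripts defined the cells and class II pathway genes set them apart from liver macrophages and monocytes. Each is the stretch of 120 bases before the RefSeq gene start on GRCm38.p6, on the strand of the gene, with the Y box letters CTGATTGG in capitals. H2-Aa, on the minus strand at chr17:34287824-34287943, encodes a class II alpha chain, and its box ran from 51 to 44 bases before the start. H2-Eb1, on the plus strand at chr17:34305747-34305866, encodes a beta chain, and its box ran from 62 to 55 bases before the start. H2-Oa, on the plus strand at chr17:34092259-34092378, encodes a chain of the class II editing inhibitor H2-O, and its box ran from 46 to 39 bases before the start.
H2-Aa: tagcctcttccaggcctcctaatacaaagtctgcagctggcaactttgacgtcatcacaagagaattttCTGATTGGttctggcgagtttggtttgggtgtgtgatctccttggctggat
H2-Eb1: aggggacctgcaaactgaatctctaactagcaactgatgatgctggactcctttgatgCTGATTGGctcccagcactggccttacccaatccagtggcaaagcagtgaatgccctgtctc
H2-Oa: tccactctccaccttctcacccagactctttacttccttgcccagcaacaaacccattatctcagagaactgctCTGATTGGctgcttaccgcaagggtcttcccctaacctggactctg
Of 10 class II genes looked for, 7 were in the promoter table, and 3 of these held CTGATTGG on either strand. Over all 32851 promoters in the table, read for 250 bases before to 50 bases after the start, 1346 (4.097%) held it. The shorter core ATTGG, which lies within those letters, was found in 7 of the 7 genes, in 7 of their 8 promoters, and in 12289 promoters (37.41%) of the whole table. A match is a description of letters and not evidence of binding.

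The Ter119 matrix held 25760 barcodes with 61892074 UMIs and the saline matrix 18354 barcodes with 97181787 UMIs. After filtering, the median was 2803 UMIs per cell in the Ter119 sample and 6239 in the saline sample, and hemoglobin took 10.8% of UMIs in the Ter119 sample against 0.0135% in the saline sample. The 2 matrices shared 133 barcode sequences, and 6 Ter119 and 0 saline dendritic cells carried one. The dendritic cells themselves were shallower in the Ter119 sample, with a median of 2596 UMIs and 1138 genes, against 9726 UMIs and 2888.5 genes in the saline sample. Hemoglobin made up 7.02% of their UMIs in the Ter119 sample and 0.000238% in the saline sample.

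Dendritic cells made up 3.58% of the filtered cells in the Ter119 sample (exact 95% interval 3.27 to 3.90%) and 2.07% in the saline sample (1.82 to 2.35%). This order depended on the mitochondrial filter: with at most 5% mitochondrial UMIs in place of 15%, dendritic cells were 404 of 7865 cells in the Ter119 sample and 136 of 2080 in the saline sample, so the saline share was the higher. Among the members, 201 Ter119 cells and 60 saline cells rested on exactly 1 marker UMI, and 16 Ter119 and 14 saline cells lay just inside the class II limit, between 1.2 and 1.4%. Just outside it, between 1.0 and 1.2%, lay 20 Ter119 and 11 saline cells that met every other criterion. The Clec4f limit alone kept out 0 Ter119 and 370 saline cells, so it acted on 1 sample. A further 825 Ter119 and 324 saline cells were class II-high with none of the 4 marker genes.

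By marker gene the members fell into 4 groups. Cd209a cells, with Cd209a and no Xcr1 or Clec9a UMI, numbered 314 of 495 (63.4%) in the Ter119 sample and 125 of 240 (52.1%) in the saline sample. Xcr1/Clec9a cells, with either gene and no Cd209a, numbered 110 (22.2%) in the Ter119 sample and 79 (32.9%) in the saline sample. Cells with markers of both kinds numbered 21 (4.24%) in the Ter119 sample and 19 (7.92%) in the saline sample, and cells with Flt3 alone 50 (10.1%) and 17 (7.08%). Flt3 is the growth factor receptor that dendritic cell precursors need, Xcr1 a chemokine receptor and Clec9a a receptor for actin exposed on dead cells.

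The 4 marker genes differed in how far other liver cells also showed them, and Clec9a was the weakest. A Clec9a UMI was seen in 6.55% of Kupffer gate cells (Clec4f at or above 0.3%) in the Ter119 sample and 17.7% in the saline sample, and in 7.31% of Ter119 and 12.9% of saline cells of an endothelial gate. With every cell thinned to 1000 UMIs, Clec9a was seen in 2.96% of Ter119 and 3.00% of saline Kupffer gate cells, and Cd209a in 0 of 541 Ter119 and 0.176% of saline ones. The members' own shares with these genes follow from the selection and say nothing about the label. Itgax, the integrin CD11c, which the selection did not use, was seen after thinning in 20.8% of Ter119 and 22.5% of saline members, against 0.924% of Ter119 and 0.374% of saline Kupffer gate cells.

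The Xcr1/Clec9a cells were therefore split, after these values were seen, into Xcr1 cells (54 Ter119 and 13 saline cells) and Clec9a-alone cells (56 Ter119 and 66 saline cells). Macrophage genes separated the 2. Vsig4, a complement receptor of Kupffer cells, Cd5l, a secreted macrophage protein, and the complement chains C1qa, C1qb and C1qc together took a median of 0.163% of a cell's UMIs in Ter119 and 0.102% in saline Xcr1 cells, and 0.240% in Ter119 and 0.131% in saline Cd209a cells. In Clec9a-alone cells the median was 0.514% in the Ter119 sample and 1.58% in the saline sample, next to 1.73% in Ter119 and 2.38% in saline Kupffer gate cells. Most Xcr1/Clec9a cells of the saline sample (66 of 79, 83.5%) were of this kind, against 56 of 110 (50.9%) in the Ter119 sample.

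**Figure D1:**
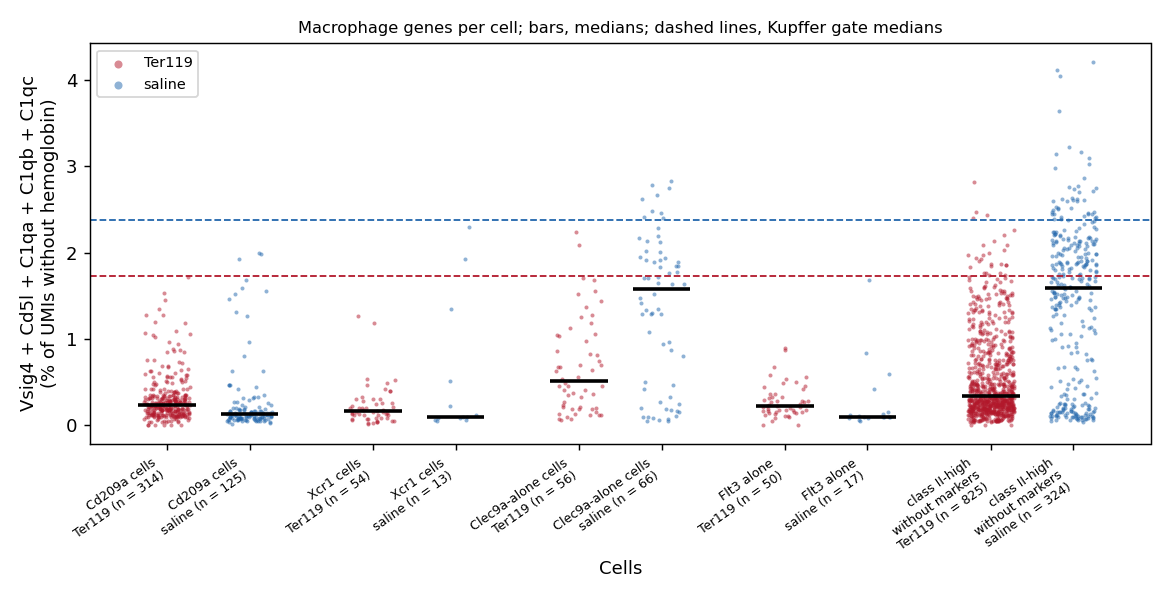
Share of each cell's UMIs without hemoglobin taken by Vsig4, Cd5l, C1qa, C1qb and C1qc (percent, vertical axis) in the marker groups of the dendritic cells, Ter119 left of saline; each point is a cell, bars are medians and dashed lines the Kupffer gate medians of 1.73% in Ter119 and 2.38% in saline. The saline Clec9a-alone cells, with a median of 1.58%, lie far above the saline Cd209a cells at 0.131%.

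How the 2 dendritic cell types compared in share depended on that split. Xcr1/Clec9a cells were 25.9% of the cells of both marker groups in the Ter119 sample (exact 95% interval 21.8 to 30.4%) and 38.7% in the saline sample (32.0 to 45.8%). Counting Xcr1 cells alone, they were 14.7% of Xcr1 and Cd209a cells in the Ter119 sample (11.2 to 18.7%) and 9.42% in the saline sample (5.11 to 15.6%), which is the opposite order with intervals that overlap. Of the members with Xcr1, 37 of 54 in the Ter119 sample and 13 of 16 in the saline sample also had Clec9a, and 0 of 54 in the Ter119 sample and 3 of 16 in the saline sample had Cd209a.

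Xcr1 cells carried the cDC1 program in both samples. Of 17 cDC1 list genes that could be compared, 14 were at least 2-fold higher in Xcr1 cells than in Cd209a cells of both samples and 0 were lower, where 2.98% of all 2985 genes compared were higher and 4.42% lower. Irf8, the factor that specifies cDC1, stood at 1873 CPM in Ter119 and 1880 CPM in saline Xcr1 cells, against 142 CPM in Ter119 and 73.2 CPM in saline Cd209a cells. Ppt1, a lysosomal thioesterase, stood at 1434 CPM in Ter119 and 1230 CPM in saline Xcr1 cells, against 86.0 and 69.1 CPM in Ter119 and saline Cd209a cells. The level of either gene was thus over 10 times higher in Xcr1 cells of each mouse.

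Other genes outside the selection followed the same division. Itgae, the integrin CD103, stood at 131 CPM in Ter119 and 181 CPM in saline Xcr1 cells, against 7.37 CPM in Ter119 and 6.50 CPM in saline Cd209a cells. Gcsam, a signalling adaptor best known from germinal centre B cells, stood at 131 CPM in Ter119 and 128 CPM in saline Xcr1 cells and had 0 counts in the Cd209a cells of either sample, so it was at least 35.5-fold higher in the Ter119 sample and at least 52.4-fold higher in the saline sample, against a floor of 3 counts over the Cd209a cells. Rab7b, a small GTPase of late endosomes, stood at 346 and 410 CPM in Ter119 and saline Xcr1 cells, against 23.3 and 14.6 CPM in Ter119 and saline Cd209a cells. Outside the lists, P2ry14, a receptor for UDP-glucose, stood at 154 and 192 CPM in Ter119 and saline Xcr1 cells, against 4.91 and 6.50 CPM in Ter119 and saline Cd209a cells. Serpinb6b, a serine protease inhibitor, stood at 201 and 245 CPM in Ter119 and saline Xcr1 cells, against 13.5 and 13 CPM in Ter119 and saline Cd209a cells. Each of these genes was high in the Xcr1 cells and low in the Cd209a cells of both mice.

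The remaining cDC1 genes filled out antigen handling and sensing. Naaa, a lysosomal amidase, stood at 944 CPM in Ter119 and 1097 CPM in saline Xcr1 cells, against 114 and 106 CPM in Ter119 and saline Cd209a cells. Wdfy4, which cDC1 need for cross-presentation, stood at 556 and 618 CPM in Ter119 and saline Xcr1 cells, against 183 and 270 CPM in Ter119 and saline Cd209a cells. Tlr3, the endosomal receptor for double-stranded RNA, stood at 149 and 325 CPM in Ter119 and saline Xcr1 cells, against 14.7 and 22.8 CPM in Ter119 and saline Cd209a cells. Cst3, the protease inhibitor cystatin C, reached 19003 CPM in Ter119 and 12158 CPM in saline Xcr1 cells, against 4099 and 4759 CPM in Ter119 and saline Cd209a cells, and was the most abundant of the cDC1 and shared dendritic cell genes in Xcr1 cells. Batf3 and Id2, 2 further cDC1 factors, were compared and did not reach 2-fold in both samples, with Batf3 at 201 and 213 CPM in Ter119 and saline Xcr1 cells, against 122 and 156 CPM in Ter119 and saline Cd209a cells. Between the mice, the Xcr1 cells rested on 13 saline cells, so a small difference there was not detectable at this depth.

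Against Xcr1 cells, Cd209a cells carried the cDC2 program. Of 13 cDC2 list genes compared, 10 were at least 2-fold lower in Xcr1 cells than in Cd209a cells of both samples and 0 were higher (4.42% and 2.98% of all 2985 genes). The list did not set them apart from Ly6c2 and Ccr2 monocytes by its sum, 0.266% of UMIs in Ter119 and 0.290% in saline Cd209a cells, beside 0.277% and 0.292% in Ter119 and saline monocytes. Against those monocytes, 5 of 13 were higher in members of both samples and 1 lower (2.59% and 3.5% of 3086 genes). Mgl2 and Clec10a are a pair of galactose-binding lectins. Mgl2 had 138 CPM in Ter119 and 194 CPM in saline Cd209a cells, against 0 counts in Ter119 and 26.6 CPM in saline Xcr1 cells. Clec10a had 165 CPM in Ter119 and 303 CPM in saline Cd209a cells, against 0 counts in Ter119 and 26.6 CPM in saline Xcr1 cells. Klf4, a factor needed by a subset of cDC2, had 107 and 170 CPM in Ter119 and saline Cd209a cells, against 4.67 and 47.9 CPM in Ter119 and saline Xcr1 cells. These 3 genes were lower in the Xcr1 cells of both mice, though not absent from those of the saline mouse.

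Klrd1, which encodes the NK receptor chain CD94, was one of the genes that set the Cd209a cells apart without being on a dendritic cell list. It had 321 CPM in Ter119 and 317 CPM in saline Cd209a cells, against 23.4 and 16.0 CPM in Ter119 and saline Xcr1 cells, and a Klrd1 UMI was found in 153 of 314 Ter119 Cd209a cells. Among the members as a whole it stood 33.5-fold above all other cells of the Ter119 sample (237 against 7.06 CPM) and 59.2-fold above those of the saline sample (198 against 3.35 CPM). The T and NK list summed to 0.0215% of UMIs in Ter119 and 0.0079% in saline members, with 1 of 11 genes at 0 in Ter119 and 2 of 11 in saline members, and Nkg7, a granule protein of these cells, had 55 counts in Ter119 and 18 in saline members. The part of such RNA in the Klrd1 counts was not tested. Ccl9, a macrophage chemokine, had 209 and 157 CPM in Ter119 and saline Cd209a cells and 2 counts in the Xcr1 cells of each sample. S100a4, a calcium-binding protein of motile cells, had 949 CPM in Ter119 and 1016 CPM in saline Cd209a cells, against 176 and 230 CPM in Ter119 and saline Xcr1/Clec9a cells. Ccnd2, cyclin D2, had 281 and 452 CPM in Ter119 and saline Cd209a cells, against 32.7 and 47.9 CPM in Ter119 and saline Xcr1 cells. The cDC2 genes Tnip3, an NF-kB inhibitor, and Cd7 had 76.1 and 71.2 CPM in Ter119 Cd209a cells and 101 and 89.4 CPM in saline ones. In Xcr1 cells Tnip3 had 0 counts in both samples, and Cd7 had 0 in the Ter119 sample and 5.33 CPM in the saline sample. Sirpa, often used to mark cDC2, was below 2-fold, with 313 and 264 CPM in Ter119 and saline Cd209a cells, against 163 and 202 CPM in Ter119 and saline Xcr1 cells.

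**Figure D2:**
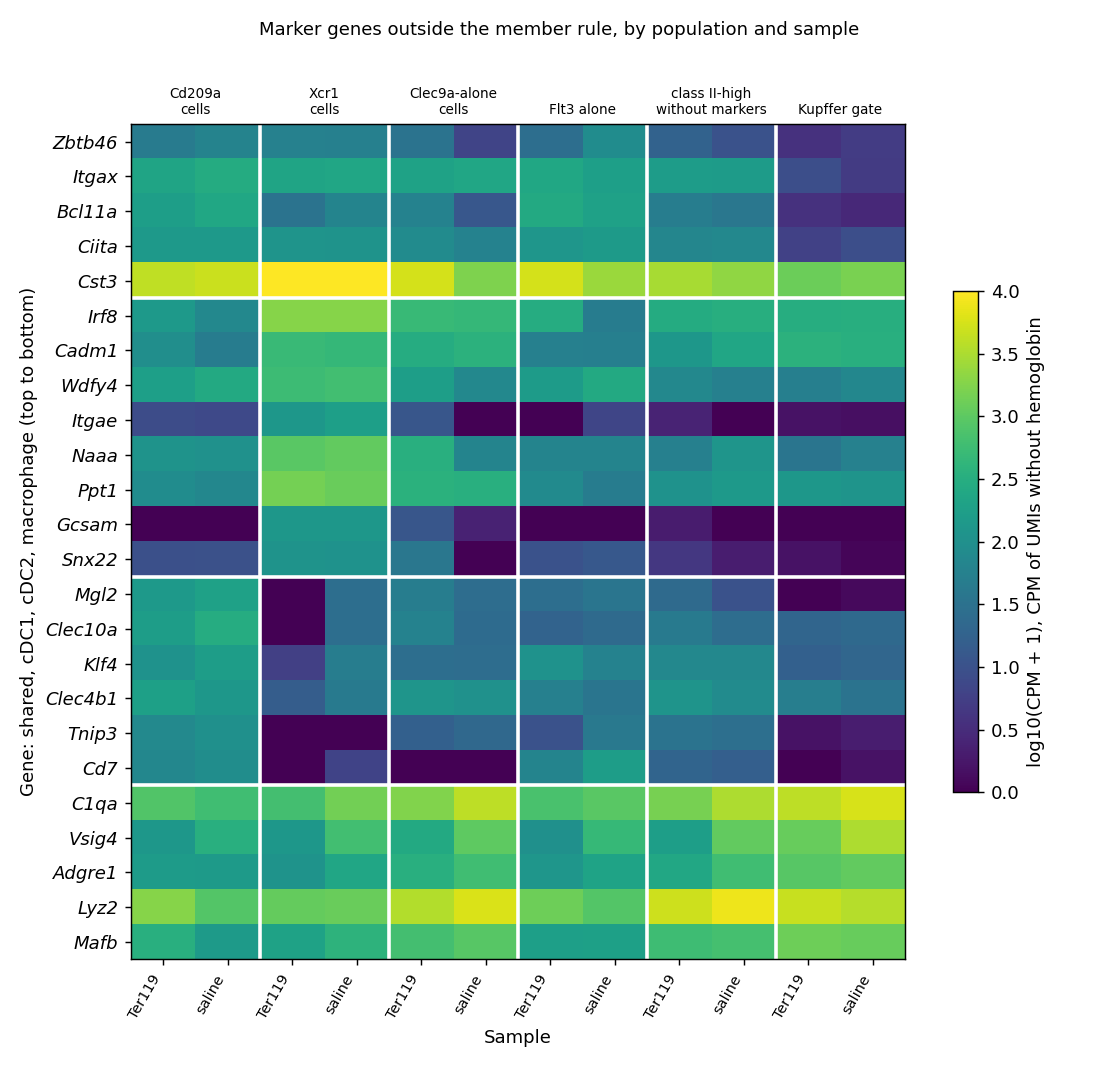
Levels of 24 genes that the selection did not use, as log10(CPM + 1) by colour, in 6 populations with Ter119 left of saline in each; from top to bottom come shared dendritic cell, cDC1, cDC2 and macrophage genes, and Cst3 in Xcr1 cells lies above the top of the scale. Irf8, Naaa, Ppt1 and Gcsam are brightest in the Xcr1 cells, Mgl2 and Clec10a in the Cd209a cells, and Cd7 in the Flt3-alone and Cd209a cells. C1qa and Vsig4 are brightest in the saline Kupffer gate, and Lyz2 in the saline class II-high cells without markers. Each of these macrophage genes is also bright in the saline Clec9a-alone cells, and C1qa and Vsig4 in the saline class II-high cells without markers.

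The Clec9a-alone cells were a mixture on these lists. Against Cd209a cells, 6 of 10 cDC1 genes were at least 2-fold higher in both samples (2.8% of 3067 genes compared were, and 2.12% were lower), but so were 5 of 9 Kupffer list genes, among them C1qa and Adgre1, the F4/80 protein on which the beads acted. Irf8 had 493 CPM in Ter119 and 458 CPM in saline Clec9a-alone cells, between the levels of Cd209a and Xcr1 cells. Itgae, Snx22 and Cd7, at or above 70 CPM in one or other dendritic cell group, were at 0 counts in the saline Clec9a-alone cells. Ms4a7, a macrophage membrane protein, had 143 CPM in Ter119 and 182 CPM in saline Clec9a-alone cells, against 28.2 and 11.4 CPM in Ter119 and saline Cd209a cells. No doublet caller was run, and whether these cells joined a macrophage and a dendritic cell in 1 droplet was not tested.

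Cells chosen through Flt3 alone held the mature program. Against Cd209a cells, 6 of 8 mature dendritic cell genes were at least 2-fold higher in both samples (2.18% of 2983 genes compared were, and 1.04% were lower): Ccr7, Fscn1, Il4i1, Marcksl1, Cd83 and Traf1. Ccr7, which guides dendritic cells to lymph nodes, had 198 CPM in Ter119 and 110 CPM in saline Flt3-alone cells, against 3.68 and 6.50 CPM in Ter119 and saline Cd209a cells. Fscn1, an actin-bundling protein of mature dendritic cells, had 495 CPM in Ter119 and 86.9 CPM in saline Flt3-alone cells, against 1.23 CPM in Ter119 and 13.8 CPM in saline Cd209a cells. Relb, an NF-kB subunit of maturing dendritic cells, had 225 and 457 CPM in Ter119 and saline Flt3-alone cells, against 24.6 and 39.8 CPM in Ter119 and saline Cd209a cells. The signal sat in few cells: Ccr7 was seen in 5 of 50 Ter119 and 4 of 17 saline Flt3-alone cells, and Fscn1 in 9 Ter119 and 1 saline cells. Cells with both Ccr7 and Fscn1 were more numerous outside the members, with 28 Ter119 and 6 saline cells among the class II-high cells without a marker gene, against 5 Ter119 and 3 saline members.

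Class II antigen loading genes, which the selection did not use, set the members apart from macrophages and monocytes of the same mouse. Of 10 class II pathway genes compared, 6 were at least 2-fold higher in members than in the Kupffer gate in both samples (8.19% of 3211 genes were higher and 11.3% lower), and the same 6 were higher than in a gate of Ly6c2 and Ccr2 monocytes (2.59% of 3086 genes were higher and 3.5% lower). They were H2-DMa, H2-DMb1 and H2-DMb2, the chains of the peptide exchange factor H2-DM, H2-Oa and H2-Ob, the chains of its inhibitor H2-O, and Ciita, the class II coactivator. Lgmn, a lysosomal endopeptidase, was the 1 gene lower than in the Kupffer gate, with 500 CPM in Ter119 and 920 CPM in saline members, against 2222 and 3599 CPM in Ter119 and saline Kupffer gate cells. The members had been chosen on class II transcripts, so the height of co-regulated genes is a description.

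Among genes outside the selection that passed the naming filters, H2-Oa stood highest in members over all other cells, at 181 CPM in Ter119 and 226 CPM in saline members, against 5.32 and 3.71 CPM in all other Ter119 and saline cells, 34.0-fold and 61.0-fold. Ciita had 125 CPM in Ter119 and 114 CPM in saline members, against 4.92 and 8.06 CPM in Ter119 and saline Kupffer gate cells. H2-DMa had 641 CPM in Ter119 and 740 CPM in saline members, against 139 and 290 CPM in Ter119 and saline Kupffer gate cells. The B gate shared part of this pathway, with H2-Ob at 183 CPM in Ter119 and 303 CPM in saline B gate cells, above the members at 89.3 CPM in Ter119 and 135 CPM in saline. H2-DMb1 and H2-DMb2 are close copies of each other, so how their reads were divided is uncertain.

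Between Xcr1 and Cd209a cells 0 of 10 pathway genes differed by 2-fold in both samples, which is near the share over all genes (2.98% higher and 4.42% lower) and so is no result about the pathway. H2-DMa, for example, had 775 CPM in Ter119 and 879 CPM in saline Xcr1 cells, against 633 and 815 CPM in Ter119 and saline Cd209a cells. In Clec9a-alone cells 3 of 10 were at least 2-fold lower than in Cd209a cells of both samples, namely H2-DMb2, H2-Oa and H2-Ob. Over all 3067 genes compared there, 2.12% were lower and 2.8% higher. H2-Oa there stood at 84.9 CPM in the Ter119 sample and 15.5 CPM in the saline sample, against 211 and 342 CPM in Ter119 and saline Cd209a cells.

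Between the mice, the class II loading genes H2-DMa and H2-DMb1 were close in members, which were chosen on class II transcripts in both samples. In the Kupffer gate, which was not, both were about 2-fold lower in the Ter119 than in the saline sample. The 4 selection genes summed to 3.62% of UMIs in Ter119 and 4.17% in saline members, a sum that the 1.2% limit holds up from below, so it shows nothing about closeness. In the Kupffer gate, which held 565 of 13846 Ter119 cells (4.08%) and 8547 of 11572 saline cells (73.9%), they summed to 0.155% of UMIs in the Ter119 sample and 0.930% in the saline sample. H2-Aa there had 267 CPM in the Ter119 sample and 2156 CPM in the saline sample, a ratio of 0.124 (95% interval 0.113 to 0.135). For the loading genes, H2-DMa had a Ter119 over saline ratio of 0.866 (0.799 to 0.939) in members and 0.481 (0.423 to 0.544) in the Kupffer gate. H2-DMb1 had a ratio of 1.00 (0.917 to 1.09) in members and 0.533 (0.460 to 0.615) in the Kupffer gate, and Ciita a ratio of 1.10 (0.905 to 1.33) in members. The intervals of members and Kupffer gate did not overlap for H2-DMa or H2-DMb1. Only the members had to reach the 1.2% limit, so this contrast may follow from the selection and is a description. The difference between the 2 ratios has no test over mice. In members 0 of 10 pathway genes passed 2-fold between the samples, near the share over all genes (1.08% higher and 2.15% lower), so the count is no result about the pathway. Their median log2 ratio was -0.34 beside -0.07 over all genes compared. Among Cd209a cells 1 of 10 was lower by 2-fold and 0 higher, where 2.18% of all genes were lower and 2.85% higher. This was H2-Ob, with 84.7 CPM in the Ter119 sample and 186 CPM in the saline sample, a ratio of 0.455 (0.343 to 0.598).

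**Figure D3:**
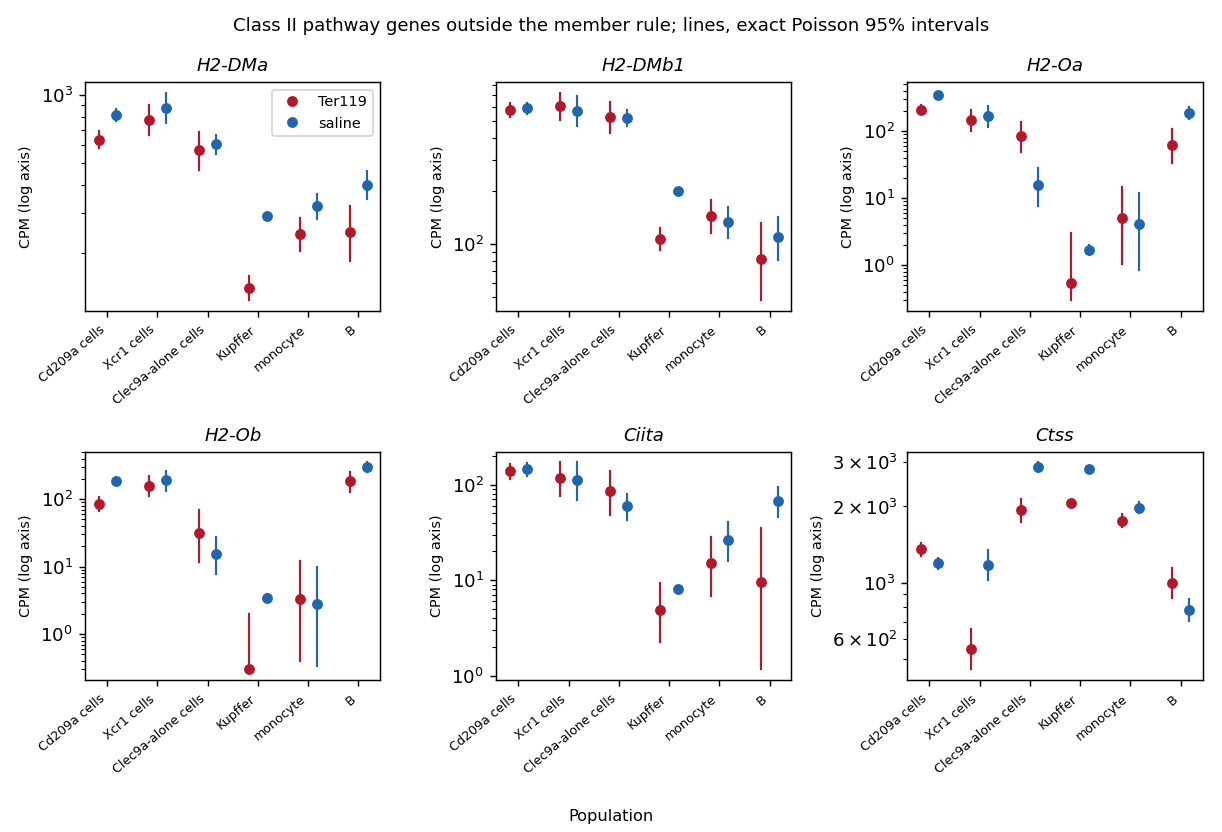
Levels (CPM, log axes) of H2-DMa, H2-DMb1, H2-Oa, H2-Ob, Ciita and Ctss in 6 populations, Ter119 left of saline, with exact Poisson 95% intervals as lines; points at a count of 0 and interval ends below 0.3 CPM are drawn at 0.3. H2-Oa lies at 211 CPM in Ter119 and 342 CPM in saline Cd209a cells and near 1 CPM in the Kupffer gate, while Ctss, a protease that trims the invariant chain, is high in all 6.

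Of 17 class I genes compared in members 0 passed 2-fold, which is near the share over all genes (1.08% higher and 2.15% lower) and so is no result about class I. Their median log2 ratio was -0.28 beside -0.07 over all genes. B2m, the light chain of class I, had 2017 CPM in Ter119 and 3328 CPM in saline members, a ratio of 0.606 (0.581 to 0.633). H2-K1, a class I heavy chain, had 1510 and 2116 CPM in Ter119 and saline members, a ratio of 0.714 (0.678 to 0.751). Psme1, a subunit of the proteasome activator, was higher, with 692 and 501 CPM in Ter119 and saline members, a ratio of 1.38 (1.27 to 1.5). Psmb9, an immunoproteasome subunit, was level between the mice, at 328 and 331 CPM in Ter119 and saline members. Psmb9 divided the types, with 673 and 650 CPM in Ter119 and saline Xcr1 cells, against 263 and 308 CPM in Ter119 and saline Cd209a cells.

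Over all genes with at least 50 CPM in 1 sample, 35 of 3252 (1.08%) were at least 2-fold higher in Ter119 than in saline members and 70 (2.15%) at least 2-fold lower. Few of these were highest in dendritic cells: of the 35 higher genes, 33 had a level at least as high in another gate of the Ter119 sample, 26 of them in the Kupffer gate, and of the 70 lower genes, 67 had one in another gate of the saline sample, 53 of them in the Kupffer gate. In Cd209a cells 94 of 3297 (2.85%) were higher and 72 (2.18%) lower. Their 5-gene macrophage median set against all members was 0.240% against 0.234% in the Ter119 sample and 0.131% against 0.157% in the saline sample, so they held less of these RNAs than all members in the saline sample alone, and its part in the counts was not tested. There 92 of the 94 higher genes were at least as high in another gate, while 28 of the 72 lower genes were highest in the Cd209a cells. In Xcr1/Clec9a cells 4.14% of 3499 genes were higher and 13.5% lower, but the make-up of that group differed between the samples, as given above.

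Most genes of the dendritic cell lists stayed within 2-fold between the mice. Over all genes 1.08% were higher and 2.15% lower, and the lower counts of the cDC1, cDC2 and mature lists exceeded that share, through 1 or 2 genes each. In members 0 of 7 shared dendritic cell genes passed 2-fold, 1 of 11 cDC1 genes was higher and 1 lower, and of 14 cDC2 genes 0 were higher and 1 lower. Of 8 mature dendritic cell genes 0 were higher and 2 lower, the chemokine Ccl22 and the checkpoint ligand Cd274. The median log2 ratio of this list was -0.82 beside -0.07 over all genes. For Ccl22, 1 saline cell gave 220 of the 313 saline member UMIs. For Cd274, 81 of 128 saline counts came from Clec9a-alone cells. Cd209a cells had 14 Cd274 counts in Ter119 and 27 in saline, over 814191 and 1230192 UMIs without hemoglobin. Zbtb46, the factor that marks the conventional dendritic cell lineage, had 43.2 CPM in Ter119 and 45.6 CPM in saline members, a ratio of 0.946 (0.681 to 1.30), and Itgax had 218 and 259 CPM in Ter119 and saline members, a ratio of 0.843 (0.733 to 0.967). Cd24a, a surface protein of cDC1, was the higher cDC1 gene, with 111 and 36.1 CPM in Ter119 and saline members. It also stood at 28.4 and 1.80 CPM in Ter119 and saline Kupffer gate cells, and had 717 counts in 846 Ter119 neutrophil gate cells. Xcr1 cells, 54 of 495 Ter119 and 13 of 240 saline members, held 87 of its 154 Ter119 and 43 of its 91 saline counts. Within Xcr1 cells 0 of 18 cDC1 genes, Cd24a among them, were higher and 3 lower (7.79% and 14.1% over all genes). Among Cd209a cells Clec10a had 165 CPM in the Ter119 sample and 303 CPM in the saline sample, a ratio of 0.543 (0.442 to 0.663), short of 2-fold. Ccr2, the monocyte and cDC2 chemokine receptor, was level at 401 and 418 CPM in Ter119 and saline members.

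Heme and iron genes stood higher in the Ter119 Cd209a cells. Of 13 compared there, 7 passed 2-fold upward and 1 downward, where 2.85% of all genes were higher and 2.18% lower, and their median log2 ratio was 1.03 beside -0.04 over all genes. In Xcr1 cells 1 of 12 was higher and 2 lower, with a median of 0.48, near the shares over all 3439 genes compared there (7.79% higher and 14.1% lower). Hmox1, which breaks down heme, had 1573 CPM in Ter119 and 106 CPM in saline Cd209a cells, a ratio of 14.8 (12.3 to 17.8), and was seen in 279 of 314 Ter119 Cd209a cells. The ferritin chains that store iron went with it: Fth1 had 12228 CPM in Ter119 and 4319 CPM in saline Cd209a cells, and Ftl1 had 7343 and 2144 CPM, a ratio of 3.43 (3.27 to 3.59). Cd163, the scavenger receptor for hemoglobin bound to haptoglobin, was the gene lower, with 17.2 and 105 CPM in Ter119 and saline Cd209a cells.

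Other cell types of the Ter119 sample showed the same genes at higher levels. Hmox1 had 3354 CPM in Ter119 and 176 CPM in saline B gate cells, 2122 and 209 CPM in Ter119 and saline endothelial gate cells, and 6216 and 959 CPM in Ter119 and saline Kupffer gate cells. The Cd209a cells were thus below the B, endothelial and Kupffer gates of the Ter119 sample. The scavenger receptor Marco, a macrophage gene, had 995 CPM in Ter119 and 92.7 CPM in saline Cd209a cells, against 2125 CPM in Ter119 and 128 CPM in saline B gate cells. The lectin Clec4n had 364 and 35.0 CPM in Ter119 and saline Cd209a cells, and 708 and 16.7 CPM in Ter119 and saline B gate cells. How much of these counts in dendritic cells came from free RNA of other cells was not tested.

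Genes of the NRF2 and lipid-associated macrophage lists followed. Of 11 NRF2 targets compared in Cd209a cells, 5 were at least 2-fold higher and 0 lower (2.85% and 2.18% over all genes). Gclm, a subunit of the enzyme that starts glutathione synthesis, had 161 CPM in Ter119 and 26.0 CPM in saline Cd209a cells, a ratio of 6.19 (4.18 to 9.41), beside 217 CPM in Ter119 and 43.9 CPM in saline B gate cells. Prdx1, a peroxidase, had 1435 and 458 CPM in Ter119 and saline Cd209a cells, a ratio of 3.13 (2.83 to 3.47). Of 12 lipid-associated macrophage genes, 9 were higher and 0 lower in Cd209a cells, and in the Kupffer gate 8 of 12 were higher, where 4.21% of 3564 genes were higher and 6.43% lower. Gpnmb, a membrane glycoprotein of lipid-laden macrophages, had 107 counts (131 CPM) in Ter119 Cd209a cells and 0 in saline ones, so it was at least 53.9-fold higher against a floor of 3 counts over the saline Cd209a cells. Its level in the Ter119 Kupffer gate was 360 CPM. Fabp5, a fatty acid-binding protein, had 388 and 25.2 CPM in Ter119 and saline Cd209a cells, beside 880 and 14.7 CPM in Ter119 and saline Kupffer gate cells.

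**Figure D4:**
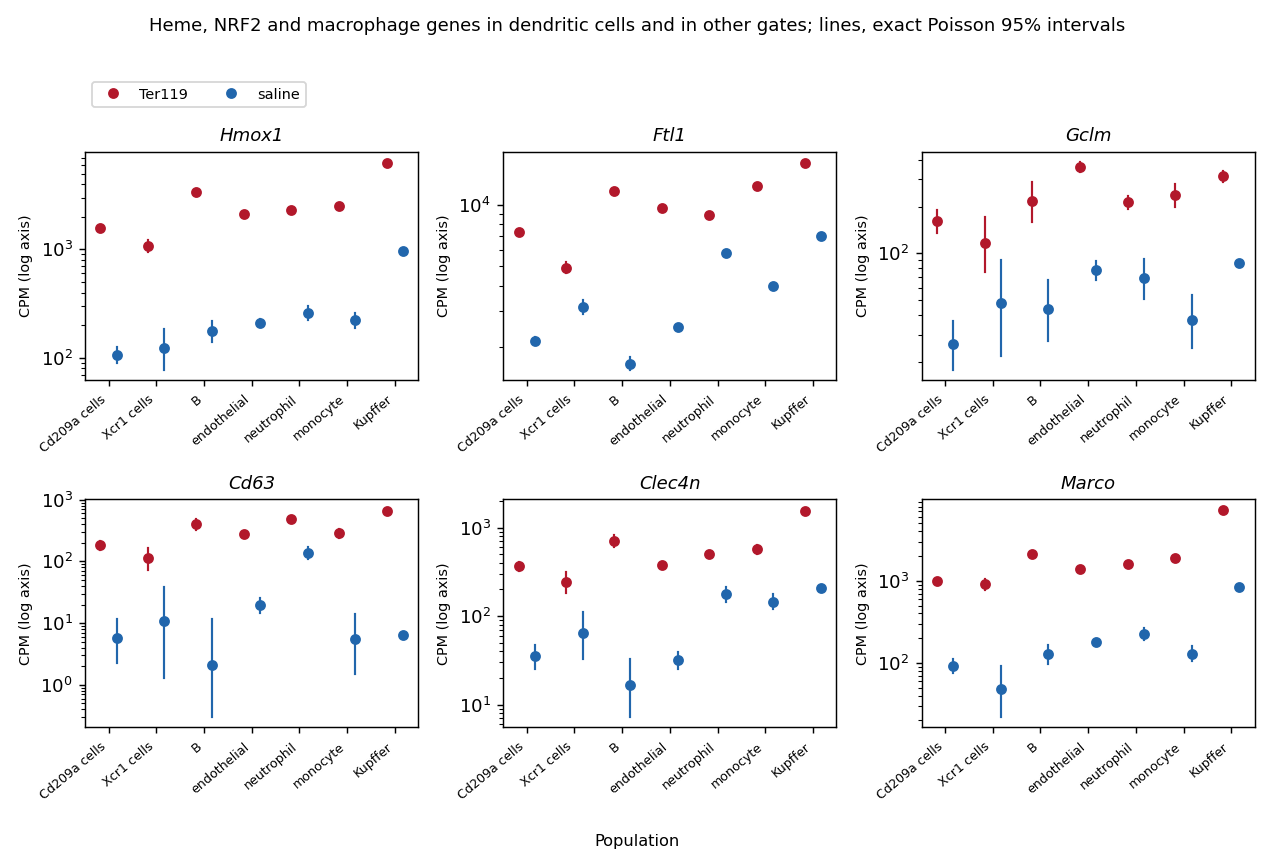
Levels (CPM, log axes) of Hmox1, Ftl1, Gclm, Cd63, Clec4n and Marco in Cd209a cells, Xcr1 cells and 5 other gates, Ter119 left of saline, with exact Poisson 95% intervals as lines. In every panel the Ter119 Kupffer gate lies above the Ter119 Cd209a cells, for Hmox1 at 6216 against 1573 CPM.

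Macrophage identity genes differed in both directions in the members. Of 12 Kupffer list genes, 1 was at least 2-fold higher, Marco, and 4 were lower (1.08% and 2.15% over all genes). Timd4, a phosphatidylserine receptor of resident Kupffer cells, had 17.3 CPM in Ter119 and 159 CPM in saline members, beside 79.9 and 585 CPM in Ter119 and saline Kupffer gate cells. Vsig4 had 143 and 556 CPM in Ter119 and saline members, beside 1176 and 3244 CPM in Ter119 and saline Kupffer gate cells. The list summed to 0.666% of UMIs in Ter119 and 0.861% in saline members. In Cd209a cells the order was the opposite, with 0.627% in Ter119 and 0.377% in saline. The part of these RNAs in the counts of other macrophage genes was not tested. Among genes outside the lists, Cxcl13, a B cell chemokine that Kupffer cells make, had 1 count in Ter119 and 365 counts in saline members and 0.547 and 328 CPM in Ter119 and saline Kupffer gate cells. C4b, a complement component, had 4.32 and 150 CPM in Ter119 and saline members, and Apoc1, an apolipoprotein, 36.0 and 661 CPM, beside 252 and 3069 CPM in Ter119 and saline Kupffer gate cells. Alb, the hepatocyte product albumin, had 185 and 661 CPM in Ter119 and saline members.

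Some chemokine genes were lower in the Ter119 members, and for Ccl17 and Ccl22 single saline cells carried much of the difference. Of 9 chemokine and receptor genes compared in members, 0 were higher by 2-fold and 4 were lower (1.08% and 2.15% over all genes). Among the lower were Ccl17, Cxcl9 and Cxcl10, and the median log2 ratio was -0.91. Of the 302 Cxcl10 counts in saline members, 219 came from Clec9a-alone cells. Ccl6 was above 1 without reaching 2-fold, at 824 CPM in Ter119 and 514 CPM in saline members. In Cd209a cells 1 of 11 was higher and 2 were lower, Ccl17 and the receptor Ccr1 (2.85% and 2.18% over all genes). Ccl17, a ligand of Ccr4, had 68.8 CPM in Ter119 and 283 CPM in saline Cd209a cells, a ratio of 0.243 (0.180 to 0.323). Ccl17 was seen in 14 of 314 Ter119 and 11 of 125 saline Cd209a cells, and 1 saline cell gave 199 of the 348 saline UMIs. Thinned to 1000 UMIs per cell, 3.18% of Ter119 and 4.0% of saline Cd209a cells had it. Ccl22, a second Ccr4 ligand, had 19.7 and 224 CPM in Ter119 and saline Cd209a cells, but 1 saline cell gave 220 of 276 UMIs, and the thinned shares were 1.91% in Ter119 and 3.2% in saline. The CPM differences of Ccl17 and Ccl22 thus rested on a few saline cells, and a difference in the share of cells making them was not detectable at this depth.

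Cxcl9, an interferon gamma-induced ligand of Cxcr3, differed between the groups of members. Cxcl9 had 150 CPM in Ter119 and 429 CPM in saline members, but 93.3 CPM in Ter119 and 61.0 CPM in saline Cd209a cells. Most saline Cxcl9 counts came from Clec9a-alone cells, at 297 CPM in Ter119 and 1147 CPM in saline, where 26 of 66 saline cells had it and 1 cell gave 316 of 812 UMIs. Ccl5, a chemokine that attracts T cells, had 409 CPM in Ter119 and 146 CPM in saline Cd209a cells. Cells with a UMI of the T and NK list, 26 of 314 in the Ter119 sample and 15 of 125 in the saline sample, held 312 of 333 Ter119 and 100 of 180 saline Ccl5 UMIs, and without them the levels were 28.7 CPM in Ter119 and 75.9 CPM in saline. Ccl6, a chemokine of myeloid cells, was the 1 gene of the chemokine and receptor list past 2-fold upward in Cd209a cells, with 902 and 349 CPM in Ter119 and saline, beside 2443 and 936 CPM in Ter119 and saline Kupffer gate cells.

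**Figure D5:**
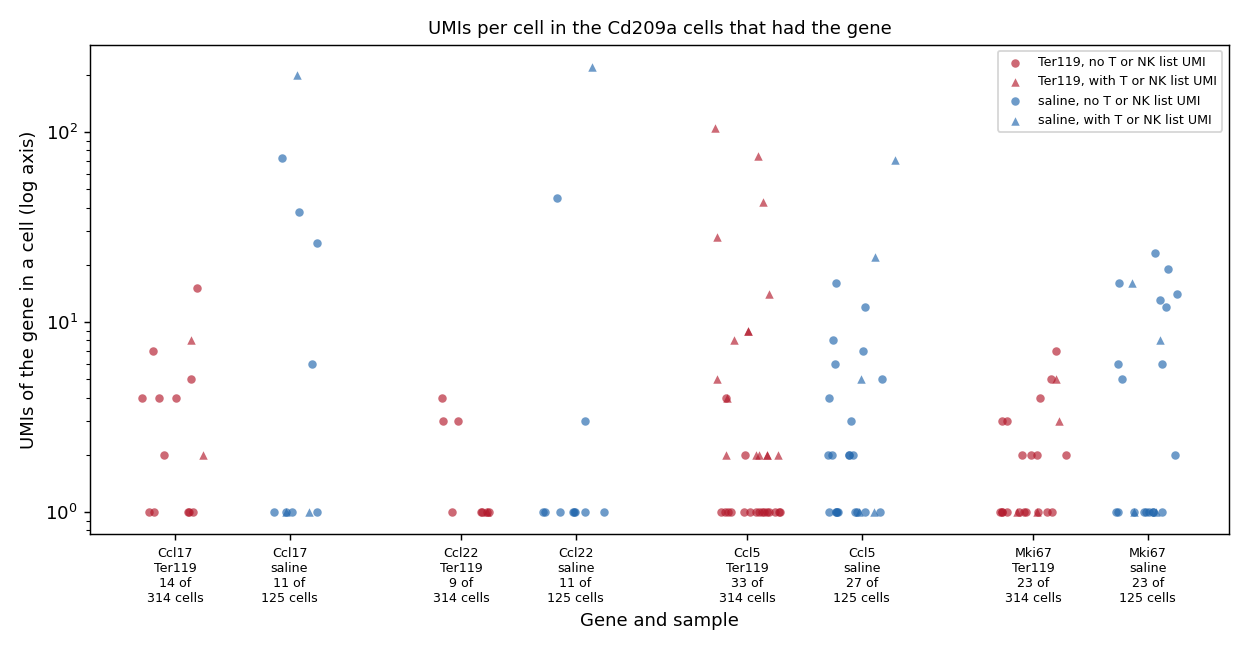
UMIs of Ccl17, Ccl22, Ccl5 and Mki67 per Cd209a cell (log axis) in the cells that had the gene, Ter119 left of saline; triangles mark cells with a UMI of the T and NK list. Single saline cells at 199 UMIs of Ccl17 and 220 of Ccl22 lie far above the rest, and the highest Ccl5 cells are triangles.

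Of 5 cytokine genes compared in members 0 were higher by 2-fold and 2 lower, Il1b and Il1rn, where 1.08% of all genes were higher and 2.15% lower. Il1b, the inflammatory cytokine, had 65.5 CPM in Ter119 and 150 CPM in saline members, a ratio of 0.435 (0.342 to 0.549), and was also lower in Cd209a cells, at 78.6 and 163 CPM in Ter119 and saline, a ratio of 0.483 (0.359 to 0.644). Il1rn, its antagonist, had 12.2 and 66.3 CPM in Ter119 and saline members, but 135 of its 167 saline counts came from Clec9a-alone cells. In Cd209a cells Il1rn had 13 counts in Ter119 and 21 in saline, over 814191 and 1230192 UMIs without hemoglobin. Il12b, the dendritic cell cytokine subunit, had 0 counts in the members of either sample, as did Il12a and Il23a. Of 18 interferon-stimulated genes 0 were at least 2-fold higher and 1 lower in members: Irf7, a factor of the interferon response, had 114 and 273 CPM in Ter119 and saline members, a ratio of 0.420 (0.351 to 0.499). In Cd209a cells the Irf7 ratio was 0.682 (0.519 to 0.888). Among the 17 interferon-stimulated genes compared there, 1 was higher, Gbp2, a guanylate-binding protein. Of 7 immediate early genes 2 were at least 2-fold lower in Cd209a cells (2.18% over all genes), Ier2 and the antiproliferative gene Btg2, with Btg2 at 149 and 345 CPM in Ter119 and saline, a ratio of 0.431 (0.349 to 0.529).

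Dividing dendritic cells were present in both mice. Of 7 cycling genes 0 passed 2-fold in members, which is near the share over all genes (1.08% higher and 2.15% lower) and so is no result about them. In Xcr1 cells 5 of 8 were higher and 0 lower (7.79% and 14.1% over all genes), with a median log2 ratio of 1.28 over 54 Ter119 and 13 saline cells. Few cells carried these counts: the top 3 Ter119 Xcr1 cells gave 64.3% of 28 Mki67 and 62.1% of 29 Top2a UMIs. The saline Xcr1 cells had 8 Mki67 UMIs and 1 Top2a UMI. In Cd209a cells 0 of 9 were higher and 1 lower (2.85% and 2.18% over all genes), with a median of -0.86, and the difference between the groups was not tested. Mki67, a marker of dividing cells, had 72.7 CPM in Ter119 and 79.8 CPM in saline members, a ratio of 0.911 (0.710 to 1.16). In Cd209a cells Mki67 had 61.4 and 123 CPM in Ter119 and saline, yet the thinned share of cells with it was 3.82% in Ter119 (1.99 to 6.58%) and 3.2% in saline (0.879 to 7.99%). Cells with at least 3 UMIs over Mki67, Top2a, Stmn1, Birc5 and Cdk1 were 28 of 314 (8.92%) in Ter119 and 14 of 125 (11.2%) in saline Cd209a cells. In Xcr1 cells they were 10 of 54 in Ter119 and 3 of 13 in saline. Of those Ter119 Cd209a cells 4 of 28 had more than 5947 UMIs, and of the saline ones 13 of 14 had more than 13883 UMIs, limits that marked the deepest cells of each whole sample. Against the Kupffer gate, 4 of 6 cycling genes were at least 2-fold higher in members of both samples and 0 lower (8.19% and 11.3% of 3211 genes). Hmgb2, a chromatin protein, had 488 and 572 CPM in Ter119 and saline members, against 110 and 210 CPM in Ter119 and saline Kupffer gate cells. Hist1h2ap, a replication-dependent histone, had 95 and 627 CPM in Ter119 and saline members, but shares reads with near-identical histone copies and is uncertain.

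Of 10 glycolysis genes 0 passed 2-fold in members (median log2 ratio 0.51) and 2 were higher in Cd209a cells (0.70), where 2.85% of all genes were higher. Gapdh in Cd209a cells had 1196 CPM in Ter119 and 635 CPM in saline, a ratio of 1.88 (1.71 to 2.07). Of 18 oxidative phosphorylation genes 0 passed 2-fold in members or in Cd209a cells, with medians of 0.15 and 0.21. The medians over all genes were -0.07 in members and -0.04 in Cd209a cells. Over all genes 1.08% were higher and 2.15% lower in members, and 2.85% and 2.18% in Cd209a cells. The counts of 0 for both lists are near these shares and are no result. Of the highest ratios outside the lists in Cd209a cells, Anxa3, an annexin, had 103 and 26.0 CPM in Ter119 and saline (3.97-fold, 2.61 to 6.16), Creg1, a lysosomal glycoprotein, 970 and 276 CPM (3.51-fold, 3.09 to 4.0), and Cstb, the protease inhibitor cystatin B, 359 and 102 CPM (3.50-fold, 2.83 to 4.35). In members the highest was Pld3, a lysosomal exonuclease, with 175 and 59.5 CPM in Ter119 and saline (2.94-fold, 2.39 to 3.63).

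RNA of other cell types in the members was uneven between the samples. The erythroid list, which includes the hemoglobin genes, came to 7.58% in Ter119 and 0.00159% in saline members. The monocyte list summed to 0.394% of UMIs in Ter119 and 0.465% in saline members, but to 0.408% and 0.281% in Ter119 and saline Cd209a cells. In Ter119 and saline members the B list summed to 0.0132% and 0.0140%, with Pax5 at 0 in both. The endothelial list summed to 0.0590% and 0.0564% in Ter119 and saline members. The neutrophil list summed to 0.206% in Ter119 and 0.0241% in saline members, and S100a8, a calcium-binding protein of neutrophils, had 905 and 113 CPM in Ter119 and saline members. The part of these RNAs in the differences above was not tested.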

How the data were processed

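Per the labels, each sample held liver cells of 1 mouse, bead-enriched, tagged with TotalSeq-B hashtags, pooled and run as 10x 3' single-cell RNA-seq. The deposited matrices hold the authors' raw UMI counts per gene and cell barcode, made with Cell Ranger 6.0.2 per the file headers; the submitters' processing notes name Cell Ranger 4.0.0, Seurat 3.2.3, Scanpy 1.7.0, DESeq2 1.26.0 and GRCm38.p6. The sources used here do not say how the hashtags were separated.

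Cells with at least 1000 UMIs, 500 genes and at most 15% mitochondrial UMIs were kept, and no doublet caller was run. Counts were summed over cells per sample. Genes with at least 50 CPM in 1 sample were compared by size, at 2-fold, with exact binomial 95% intervals of the ratio and exact Clopper-Pearson intervals of shares. Gates were set on marker genes: Kupffer on Clec4f, monocyte on Ly6c2 and Ccr2 with class II below the limit, B on Cd79a with Cd79b or Ms4a1, neutrophil on S100a8 and S100a9 (2%), endothelial on Stab2, Ptprb, Kdr and Egfl7 (0.3%). Read scaling used edgeR 4.0.16 and DESeq2 1.42.0 as alternatives, with R 4.3.3; the rest used Python 3.11.15, numpy 2.4.6, pandas 2.3.3, scipy 1.17.1 and matplotlib 3.10.9. The comparison was tested on simulated data.

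The members and lists were chosen with earlier results of these data known. Outside the lists, genes were named by size: the 10 highest and 10 lowest Ter119 over saline among those with 100 CPM and a UMI in 10% of members, the 10 highest in members over other cells and the 8 highest each way between marker groups, without mitochondrial, ribosomal, sex-linked, receptor-segment, unnamed or hemoglobin genes, and for the first without genes over 5 times higher in another gate. The finer marker groups and the counts per cell were chosen after the data were seen. Some results are not reported here.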

Additional observations from a re-analysis of the deposited data

Results flagged for a closer look

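The following 5 genes had log2 Ter119 over saline ratios past 1 in opposite directions in Cd209a cells and in Xcr1/Clec9a cells. The differences were not tested, since each treatment had 1 mouse. Slc11a1, a metal transporter of phagosomes, had 1.67 in Cd209a cells and -1.09 in Xcr1/Clec9a cells. Mertk, a receptor for dead cells, had 1.10 and -1.36 in the same order, Lyz2, the macrophage lysozyme, 1.16 and -1.18, and Ctsl, a lysosomal protease, 1.39 and -1.16. For these 4 genes the Clec9a-alone cells held the highest saline level of the marker groups compared, with Lyz2 at 3417 CPM in Ter119 and 5973 CPM in saline, and those cells made up 50.9% of Ter119 and 83.5% of saline Xcr1/Clec9a cells. Ccl5 had 1.48 in Cd209a cells, where cells with a UMI of the T and NK list held 312 of 333 Ter119 and 100 of 180 saline UMIs. In Xcr1/Clec9a cells Ccl5 had -3.11, from 13 counts in the Ter119 sample and 249 in the saline sample. The part of the mixed marker groups in these values was not tested.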

How the results depend on the processing

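Shares and counts below are Ter119 first and log2 values are Ter119 over saline. No paired analysis was possible because each treatment had 1 mouse, and leaving out a replicate was not possible either. Dendritic cells were 3.2 and 1.75% of cells at a class II limit of 2%, 2.12 and 1.56% with at least 2 marker UMIs, 4.11 and 2.37% with at least 2000 UMIs, 5.14 and 6.54% at 5% mitochondrial UMIs, 2.90 and 1.47% without members holding 1% of other cell types' lists, and 3.17 and 1.5% without Clec9a-alone cells. The saline share was 1.51% with cells thinned to 2000 UMIs and 1.68% without the deepest cells. Saline Xcr1/Clec9a cells were 45.9% of both marker groups at a class II limit of 0.8%, 23.5% with at least 2 marker UMIs, 25.8% thinned and 20.3% without members holding other lists; asking for Xcr1 gave 14.7% in Ter119 and 9.42% in saline.

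Genes past 2-fold numbered 119 higher and 190 lower thinned, 63 and 45 without members holding other lists, 93 and 218 at 20 CPM, and 653 and 1259 with no filter. There were 67 higher without the deepest cells, 94 in Cd209a cells alone, 71 without Clec9a-alone cells, and 46 lower with DESeq2 size factors. Heme and iron medians were 1.09 thinned, 1.08 without members holding other lists and 1.03 in Cd209a cells alone. The NRF2 median was 1.14 thinned, the cycling median 1.27 without the deepest cells, the mature median -1.0 with at least 2000 UMIs and the chemokine median -1.08 with all UMIs as denominator. The lipid-associated macrophage median was 0.99 at a class II limit of 2%, 0.87 with all UMIs and 0.997 without shared barcodes.

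Direction reversed for Fscn1 (-2.02 with at least 2 marker UMIs and -3.49 in Cd209a cells alone), Cxcl10 (1.7 thinned), Hist1h2ap (0.12 without the deepest cells), Cxcl9 (0.49 without members holding other lists and 0.61 in Cd209a cells alone) and Ccl5 in Cd209a cells (-1.40 without cells with a T and NK UMI). Of 700 values for 50 genes in members, 645 kept their side of 2-fold, and of 203 for 29 genes in Cd209a cells, 187 did. For genes short of 2-fold in the main setting the sign was not checked, so reversals among them are not listed. The settings with Cd209a cells alone, without Clec9a-alone cells, asking for Xcr1 and without T and NK cells were added after the data were seen. The cause was not tested.

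Depth limits the Ter119 members most, at a median of 2596 UMIs against 9726 in saline members.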
